A study of Sus scrofa with 2 samples.

Results

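Endothelial cells, which line blood and lymphatic vessels, were picked here from single-nucleus RNA sequencing of olfactory mucosa of newborn pigs. A nucleus was taken when it had 500 or more detected genes and at least 1 unique molecular identifier (UMI, a transcript counted once) from each of 3 or more of 11 genes of endothelium: PECAM1, VWF, CDH5, FLT1, KDR, PTPRB, EGFL7, TEK, EMCN, CYYR1 and ADGRL4. This rule took 475 nuclei of 10769 barcodes in all, of which 9834 had 500 or more genes. The wild type library gave 179 of 4529 such nuclei and the CFTR knockout library 296 of 5305. CFTR is the chloride channel that is lost in cystic fibrosis, and the study compares smell tissue with and without it. Each genotype is 1 library of a newborn piglet, labelled wild type in one and CFTR knock out in the other, from slices of frozen olfactory neuroepithelium whose nuclei were freed in a citric acid buffer and captured with the 10x Genomics kit. With 1 library per genotype no difference between them has a replicate check, so no p-value is given, and genotype, animal, dissection and capture cannot be told apart. Intervals are exact at the 95% level, except where said, and cover counting error only.

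As background, endothelium holds its identity through ETS and SOX transcription factors, and it answers to vascular endothelial growth factor (VEGF) through the receptors FLT1, KDR and FLT4 and to angiopoietins through TEK and TIE1. Cells are joined by VE-cadherin (CDH5) and rest on a basement membrane of type IV collagen, laminins and nidogens that they share with pericytes. Arteries, capillaries and veins carry different gene programmes, with veins as the main site where leukocytes leave the blood, and lymphatic vessels are set apart by the factor PROX1. The lamina propria under the olfactory epithelium is rich in vessels, veins among them.

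The 11 selecting genes chose the nuclei, so their levels are given as a description only. The 475 nuclei were split in 2 parts by the density of the selecting genes, and the label of endothelium is used below for the denser part only. In 84 wild type and 212 knockout nuclei the selecting genes held at least 20 of every 10000 UMIs; these 296 nuclei, both libraries together, are called dense below. The other 95 wild type and 84 knockout nuclei, called sparse, reached 3 selecting genes at a lower density. The threshold of 20 was set after the values were seen, and 9 wild type and 17 knockout nuclei lay between 20 and 25 per 10000, against 3 and 18 between 15 and 20. The selected nuclei held 1743931 UMIs in the wild type and 1500147 in the knockout library. Sparse nuclei were deep, with a median of 10223 UMIs in the wild type and 7274 in the knockout library, against 2534 and 2355 in dense nuclei and 3096 and 2396 in all nuclei outside the rule.

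Transcription factors of endothelium, which the rule did not use, differed in summed level between the 2 parts. Their summed level in dense nuclei was 7772 CPM (counts per 1e+06 UMIs) in wild type nuclei and 5495 CPM in those of the knockout. Sparse nuclei had 1534 and 1826 CPM, nearer to the 1422 and 1344 CPM of nuclei outside the rule than to dense nuclei. Some sparse nuclei did hold genes of lymphatic vessels. UMIs of 3 or more listed ones were in 11.6% and 27.4% of sparse nuclei, 26.2% and 21.7% of dense ones and 0.184% and 0.479% outside the rule. Of the sparse nuclei, 86 of 95 in the wild type and 53 of 84 in the knockout library had UMIs of 3 or more immature neuron markers, and 69 and 50 had 3 or more ciliated cell markers. In dense nuclei these counts were 29 of 84 and 49 of 212 for immature neuron markers, and 0 and 27 for ciliated cell markers. Secretory or gland markers were at 3 or more in 2 and 96 dense nuclei, and in 32 and 63 sparse ones. Such counts grow with depth, and per UMI the immature neuron markers were at 3936 and 1777 CPM in sparse nuclei and 915 and 1108 CPM in dense ones. By the transcription factors, the label of endothelium is used for the dense nuclei, and the sparse ones are kept under the name of the rule only. Whether some sparse nuclei are endothelial was not tested.

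**Figure D1:**
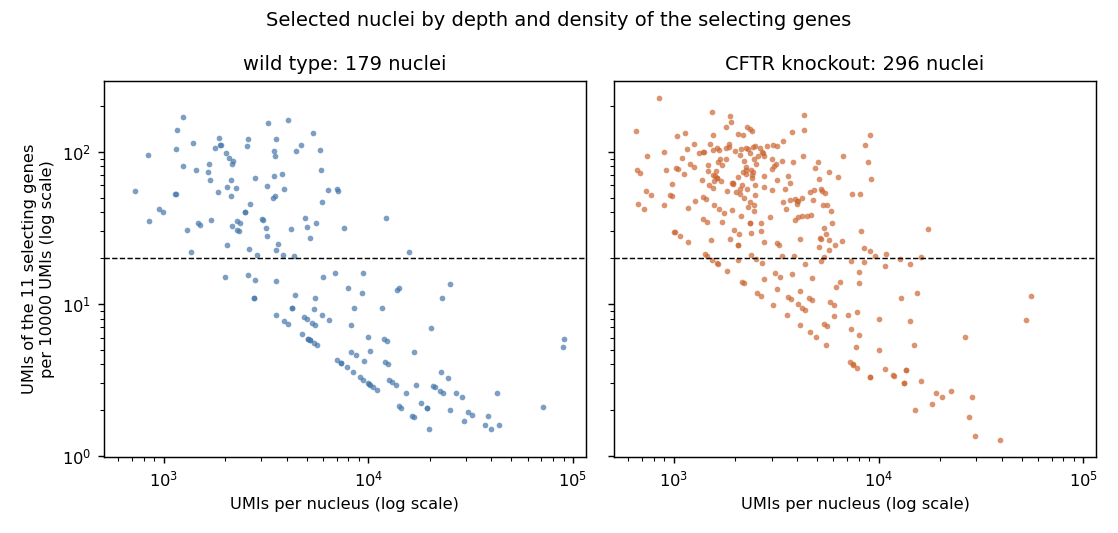
Each point is 1 of the 475 selected nuclei, by its UMIs (x, log scale) and the UMIs of the 11 selecting genes per 10000 (y, log scale), for the wild type (left) and CFTR knockout library (right). The dashed line is at 20 per 10000: 84 wild type and 212 knockout nuclei lie on or above it, and the deepest nuclei, up to 90361 UMIs in the wild type and 55739 in the knockout library, lie below it.

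Dense and sparse nuclei were mixed differently in the libraries, which touches every sum over all 475 nuclei. Dense nuclei gave 15.3% of the UMIs of the selected nuclei in the wild type library and 43.5% in the knockout library. Nuclei with exactly 3 selecting genes numbered 75 in the wild type and 73 in the knockout library, of which 14 and 22 were dense, and just outside the rule 276 and 360 nuclei had 2 selecting genes, of which 13 and 33 passed 20 per 10000. Per selecting gene, the dense nuclei had 635 and 658 CPM of PECAM1, an adhesion molecule of endothelial junctions, in the wild type and knockout library. VWF, which carries clotting factor VIII, was at 665 and 612 CPM. The VEGF receptors FLT1 and KDR were at 475 and 514 CPM and at 456 and 455 CPM, and the angiopoietin receptor TEK at 299 and 382 CPM. VE-cadherin, CDH5, was at 198 and 166 CPM, the sialomucin EMCN at 792 and 851 CPM, the VE-cadherin phosphatase PTPRB at 568 and 728 CPM, CYYR1 at 643 and 737 CPM and the adhesion receptor ADGRL4 at 456 and 578 CPM. EGFL7, a secreted protein of endothelium, was at 769.7 and 420.1 CPM, a log2 ratio of knockout over wild type of -0.87. Others, PTPRB and ADGRL4 among them, were higher in the knockout library. As these genes chose the nuclei and set their density, such ratios are a description only.

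Over the whole series, the knockout library had more UMIs of genes of secretory and ciliated epithelium, both in nuclei outside the rule and in dense nuclei. In nuclei outside the rule the summed secretory or gland markers were at 502 CPM in wild type nuclei and 2082 CPM in the knockout ones, and in dense nuclei at 538 and 1656 CPM. Ciliated markers were in dense nuclei at 89.7 CPM, with 3 of 9 genes at 0, and 949 CPM, with none at 0. Neuronal markers were present in nuclei outside the rule, as the tissue label says, at 3645 and 2571 CPM for immature neurons. Markers of macrophages and other leukocytes in dense nuclei came to 168 and 169 CPM, and those of pericytes or smooth muscle to 534 and 443 CPM. Barcodes shared by the 2 libraries numbered 8, of which 0 were selected nuclei. To narrow the dense set further, nuclei in which any other marker list, basal cells aside, had as many UMIs as the selecting genes were left out, which gave 67 wild type and 172 knockout nuclei, called narrowed below. The narrowed nuclei still held secretory or gland markers at 301 and 1479.7 CPM, with UMIs of 3 or more of them in 1 wild type and 64 knockout nuclei, and ciliated markers at 74.0 and 303 CPM. The part of these markers in the differences between libraries was not tested.

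Few of the UMIs of CFTR itself came from endothelium. Nuclei outside the rule had it at 91.4 CPM in the library labelled wild type and 12.9 CPM in that labelled knockout, a log2 ratio of -2.82 (-3.05 to -2.61). All selected nuclei had 78 UMIs (44.7 CPM) in the wild type library and 18 (12.0 CPM) in the knockout library, a log2 ratio of -1.90 (-2.73 to -1.15). Dense nuclei had 11 UMIs from 4 nuclei, 8 of them in 1 nucleus, in the wild type library, and 4 UMIs from 4 nuclei in the knockout library. Their log2 ratio of -2.74 (-4.85 to -0.99) rests on those few UMIs. UMIs of the gene were not absent from the knockout library, and the labels do not say where the knockout lies in the gene.

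Selected nuclei made up 3.95% (3.40 to 4.56%) of wild type nuclei with 500 or more genes and 5.58% (4.98 to 6.23%) of knockout nuclei, a log2 ratio of 0.50 (0.24 to 0.76 by a log-normal interval). Dense nuclei made up 1.85% (1.48 to 2.29%) and 4.00% (3.49 to 4.56%), a log2 ratio of 1.11 (0.75 to 1.47). The difference in the share of sparse nuclei had the opposite sign, at 2.10% and 1.58%. The intervals of the dense shares did not overlap, but they do not hold the variation between pieces of tissue, which was not measured. Free RNA was not removed from the counts.

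Many of the genes that marked the selected nuclei, apart from the selecting genes, are known from endothelium. Over all selected nuclei, 92 of 10838 tested genes (0.849%) were at least 4-fold higher than in the nuclei outside the rule in both libraries. In dense nuclei these were 263 of 6349 (4.14%), where tested means at least 30 UMIs over both libraries. Since the nuclei were chosen by genes of the same cells, these counts describe the set and test nothing. The 20 genes with the highest lower bound of this ratio in all selected nuclei were MYCT1, ADGRF5, MMRN1, NR5A2, APLNR, TLL1, RASGRP3, TBX1, CLVS1, GPIHBP1, S1PR1, NOTCH4, BTNL9, CD34, PPP1R16B, CLEC2B, CAVIN2, SOX18, CLEC14A and NOSTRIN. The same rule in dense nuclei also named FLI1, LRFN5, CXorf36, SELP, F8, SHE and FGD5.

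**Figure D2:**
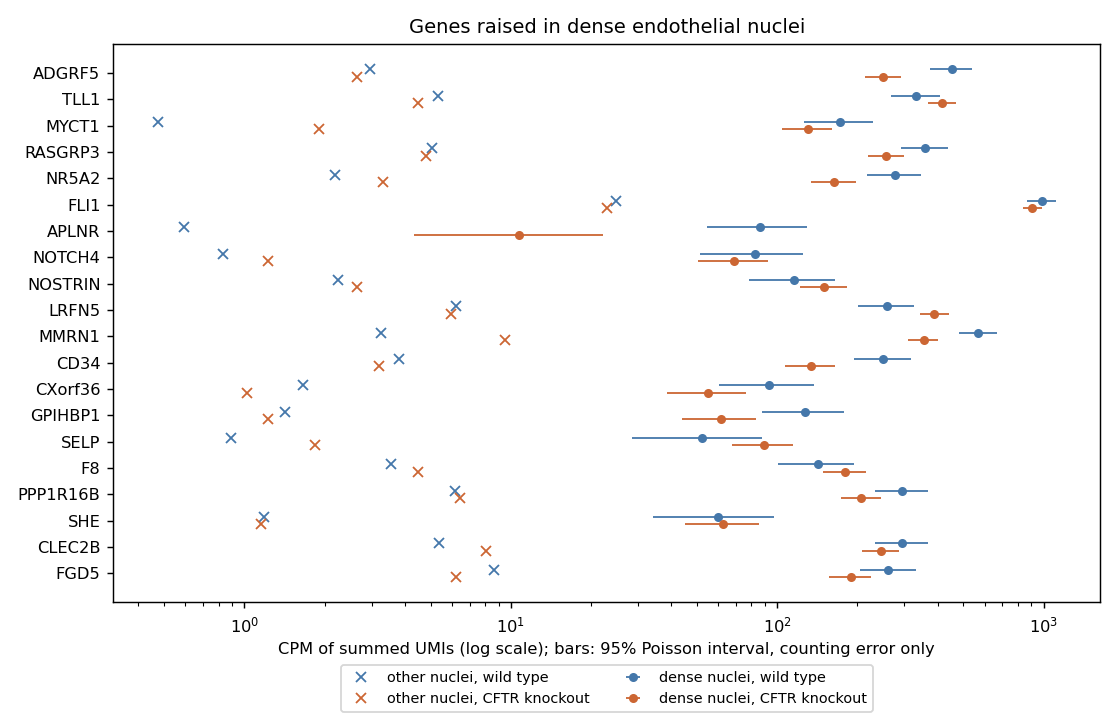
The 20 genes named in dense endothelial nuclei, with their CPM (x, log scale) in dense nuclei (points, with 95% Poisson intervals for counting error) and in nuclei outside the rule (crosses), for the wild type (blue) and knockout library (orange). The points lie between 10.7 CPM (APLNR, knockout) and 983 CPM (FLI1, wild type), and each lies to the right of its cross. APLNR has no cross in the knockout library, where it had 0 UMIs outside the rule.

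Among the transcription factors, 15 of 28 listed genes passed the filter in dense nuclei, and 13 of them were at least 2-fold higher than outside the rule by the mean of the libraries, as were 11.8% of all 6349 tested genes. Their median log2 ratio over other nuclei was 3.55 in the wild type and 2.65 in the knockout library, beside 0.071 and 0.065 over all genes tested. FLI1, an ETS factor, had 263 and 592 UMIs (983 and 908 CPM) in the wild type and knockout library, against 24.7 and 23.0 CPM outside the rule. ERG, another ETS factor, was at 463 and 466 CPM, against 33.7 and 16.6 CPM. TBX1, a T-box factor known from lymphatic development, had 190 and 324 UMIs (709.9 and 497 CPM), against 2.61 and 24.6 CPM. Both libraries had these 3 factors far above other nuclei. NR5A2, a nuclear receptor, had 74 and 107 UMIs (277 and 164 CPM), with log2 ratios over other nuclei of 6.98 and 5.62. EPAS1, the hypoxia-inducible factor known from endothelium, was at 198 and 195 CPM, little above the 133 and 134 CPM of other nuclei.

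Receptors and surface proteins followed. ADGRF5, an adhesion receptor coupled to G proteins, had 121 UMIs (452 CPM) in the wild type library and 163 (249.9 CPM) in the knockout library, with log2 ratios over other nuclei of 7.25 and 6.56. S1PR1, the receptor for sphingosine 1-phosphate, had 43 and 74 UMIs (161 and 113 CPM), against 1.96 and 4.21 CPM elsewhere. NOTCH4, the Notch receptor of endothelium, had 22 and 45 UMIs (82.2 and 69.0 CPM), against 0.830 and 1.22 CPM. Each was present in both libraries at levels that other nuclei did not approach. CALCRL, the receptor that binds adrenomedullin with RAMP2, had 277 and 539 UMIs (1035 and 826 CPM), and RAMP2 50 and 97 UMIs (187 and 149 CPM). CD34, a sialomucin, had 67 and 87 UMIs (250.3 and 133 CPM). TIE1, the partner of TEK, had 29 and 38 UMIs (108 and 58.3 CPM), against 7.11 and 7.33 CPM, and MYCT1, a membrane protein of endothelium, 46 and 85 UMIs (172 and 130.3 CPM), against 0.474 and 1.90 CPM. RASGRP3, an exchange factor for Ras and Rap, had 96 and 167 UMIs (359 and 256 CPM).

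Genes of vessel function were also high. F8, which encodes the clotting factor carried by VWF, had 38 and 117 UMIs (142 and 179 CPM), against 3.56 and 4.48 CPM outside the rule. NOSTRIN, which binds the endothelial nitric oxide synthase, had 31 and 98 UMIs (116 and 150.2 CPM). The synthase gene NOS3 had 10 and 42 UMIs (37.4 and 64.4 CPM), against 3.62 and 5.98 CPM. In the list of coagulation and vascular tone, 10 of the 13 tested genes were at least 2-fold higher than in other nuclei. GPIHBP1, which holds lipoprotein lipase on the capillary wall, had 34 and 40 UMIs (127 and 61.3 CPM), CAVIN2, a coat protein of caveolae, 37 and 55 UMIs (138 and 84.3 CPM), and PLVAP, the protein of fenestral diaphragms, 44 and 90 UMIs (164 and 138 CPM). In the caveolae, fenestrae and scavenging list 10 of the 10 tested genes were raised. FGD5, an exchange factor for Cdc42, had 70 and 123 UMIs (262 and 189 CPM). Junction genes were raised in 7 of the 16 tested: ESAM was at 56.0 and 47.5 CPM and JAM2 at 303 and 386 CPM, whereas JAM3 (82.2 and 92.0 CPM) was below the 147 and 117 CPM of other nuclei. CLDN5, COL4A1, SELE, PODXL, CD36 and STAB2 were not listed by symbol and are not analysed here.

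Pericytes sit on the same basement membrane, so dense nuclei were also set beside 160 wild type and 120 knockout nuclei outside the rule with UMIs of 3 or more pericyte or smooth muscle markers. FLI1 was at 983 and 908 CPM in dense nuclei and 42.6 and 38.3 CPM in pericyte-marked nuclei, log2 ratios of 4.53 in the wild type and 4.57 in the knockout library. SOX18 was higher in dense nuclei by a log2 ratio of 6.90 in the wild type and 5.19 in the knockout library, PLVAP by 4.76 in the wild type and 3.53 in the knockout library and CALCRL by 3.79 in the wild type and 2.65 in the knockout library. PDGFB, the signal by which endothelium recruits pericytes, had 12 and 21 UMIs in dense nuclei and 1.01 and 0 CPM in pericyte-marked nuclei. Its receptor PDGFRB, which was among the marker genes of the pericyte set, was at 29.9 and 23.0 CPM in dense nuclei and 112 and 148 CPM in pericyte-marked nuclei. Genes of the shared basement membrane were not of one kind. COL15A1 was higher in dense nuclei by a log2 ratio of 3.56 in the wild type and 1.21 in the knockout library, COL18A1 by 2.63 in the wild type and 2.44 in the knockout library and HSPG2 by 2.49 in the wild type and 2.47 in the knockout library. LAMA4 was higher by 2.12 in the wild type and 0.37 in the knockout library and COL4A2 by 1.18 in the wild type and 0.30 in the knockout library. LAMC1, a laminin chain, was at 291 and 227 CPM in dense nuclei and 169 and 184 CPM in pericyte-marked nuclei, and LAMB1 at 399.8 and 274 CPM in dense nuclei and 508 and 232 CPM in pericyte-marked nuclei.

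Between the libraries, the direction of the endothelial genes depended on which nuclei were summed. Over all 475 selected nuclei, 967 of 10838 genes (8.92%) were at least 2-fold higher in the knockout library and 759 (7%) at least 2-fold lower. Among the 382 genes at least 2-fold higher than in other nuclei by the mean of the libraries (3.52% of those tested), 150 (39.3%) were higher and 1 (0.262%) lower. A gene can pass that filter through the knockout library alone, where dense nuclei held the larger share of UMIs, so the split is in part set by the filter and is read no further. The median log2 ratio over the endothelial lists was 0.48 for 182 genes, beside 0.15 over all genes tested. In dense nuclei, of 6349 genes, 673 (10.6%) were at least 2-fold higher and 272 (4.28%) lower, while among the 748 raised genes (11.8% of those tested) 57 (7.62%) were higher and 91 (12.2%) lower. There too a gene can pass the filter only through the library where it is high, so this split is a description only. The shares of raised genes set beside gene lists below carry the same limit. In dense nuclei the endothelial lists had a median of -0.40 over 149 genes, beside 0.14 over all genes tested, and in narrowed nuclei -0.29. Narrowed nuclei had 275 genes (5.37%) at least 4-fold raised, 431 (8.41%) at least 2-fold higher and 227 (4.43%) at least 2-fold lower in the knockout library, and among raised genes 66 (8.74%) higher and 89 (11.8%) lower. The sum over all selected nuclei moves with the dense share of UMIs given above. With TMM scale factors the splits were 723 higher and 958 lower over all selected nuclei, and 522 higher and 385 lower in dense nuclei.

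**Figure D3:**
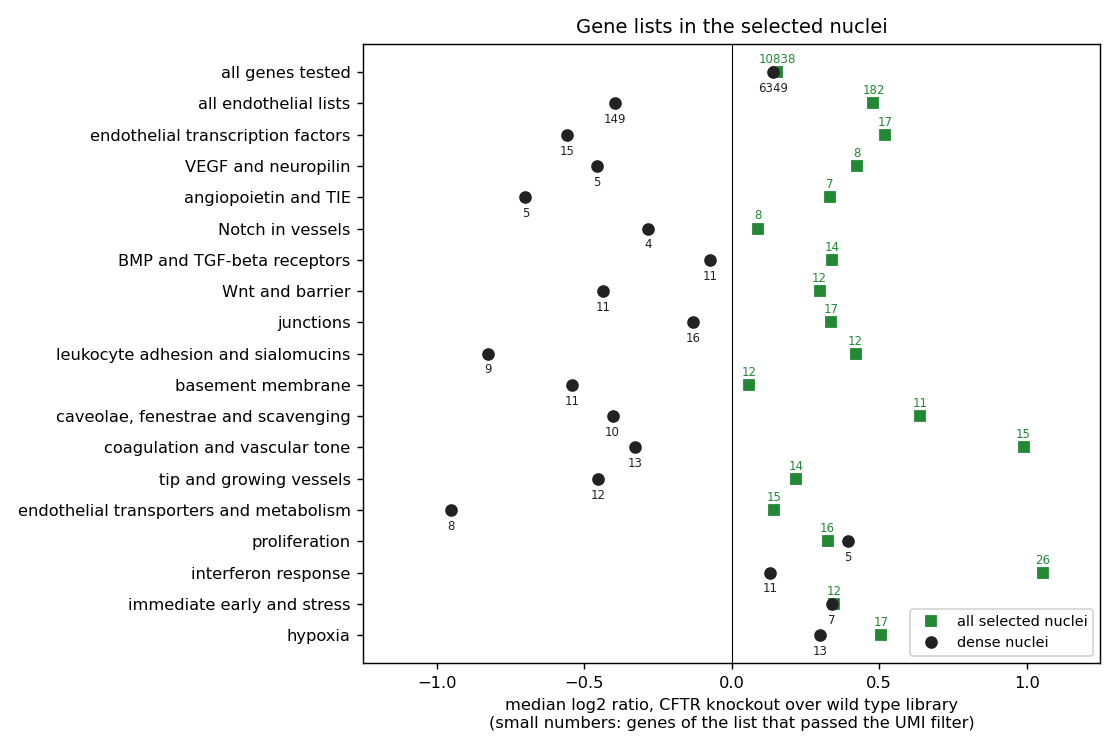
Median log2 ratio of CPM, knockout over wild type library (x), for all genes tested, all endothelial lists together and single gene lists (y), in all selected nuclei (green squares) and in dense nuclei (black circles). Small numbers give the genes of a list that passed the filter of 30 UMIs. All endothelial lists together lie at 0.48 in all selected nuclei and at -0.40 in dense nuclei.

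The named genes that were higher in the knockout library over all selected nuclei were CRISP3, CXCL2, EDN1, IL1R1, NAALAD2, ABCB11, CLIC2, PRKCH, MYRIP and GAS2L2. CXCL2, a chemokine that draws neutrophils, had 30 UMIs (17.2 CPM) in the wild type library and 214 (143 CPM) in the knockout library, a log2 ratio of 3.05 (2.50 to 3.65). EDN1, the precursor of the vasoconstrictor endothelin 1, had 2 and 34 UMIs (1.15 and 22.7 CPM), with 4.30 (2.34 to 7.41). These 2 differed far more in selected nuclei than in other nuclei, where the ratios were 0.27 and -0.17. CRISP3, a secreted protein of glands, had 3 and 66 UMIs (1.72 and 44.0 CPM), of which 36 knockout UMIs came from 1 nucleus, and ABCB11 24 and 122 UMIs (13.8 and 81.3 CPM). Both were also higher in knockout nuclei outside the rule, by log2 ratios of 3.45 and 2.93, and in narrowed dense nuclei their ratios were -0.81 and 0.40. The 10 named as lower were APLNR, CD93, ADAMTS6, CIART, AQP1, RGS17, SPARCL1, COL15A1, TMEM144 and SLC39A10, of which only APLNR passed 2-fold, at -1.68 (-3.12 to -0.43). Over all genes, raised or not, TCTEX1D4, UBXN10 and SLPI were highest in the knockout library, with 59 UMIs of UBXN10 against 0, and TEX15, CALCR and MMP3 lowest. Nuclei outside the rule had the same sign for each of these 6 genes, from -3.40 for MMP3 to 4.13 for TCTEX1D4.

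The raised genes named as higher in the knockout library within dense nuclei were L3MBTL4, IL13RA2, PTGS2, IL1R1, SYNE2, MTUS1, SLC22A3, MME, CXCL2 and CCDC85A. A gene can count as raised through the knockout library alone, so this list is a description and its genes need not be raised in wild type nuclei. IL1R1, the signalling receptor of interleukin 1, had 34 UMIs (127 CPM) in the wild type library and 348 (534 CPM) in the knockout library, from 20 and 105 nuclei, a log2 ratio of 2.07 (1.56 to 2.62), against 0.65 in nuclei outside the rule. IL13RA2, a receptor that binds interleukin 13 without the usual signalling, had 3 UMIs (11.2 CPM) in the wild type library and 79 (121 CPM) in the knockout library, a log2 ratio of 3.43 (1.83 to 5.74), against -0.77. CXCL2 had 24 and 198 UMIs (89.7 and 304 CPM), with 1.76 (1.14 to 2.44). For these 3 genes the counting intervals of the 2 libraries did not overlap, but the genes were chosen by the interval of this ratio, so this tests nothing. Over all 6349 genes tested, 928 had an interval of the ratio above 0 and 609 below 0. PTGS2, the inducible cyclooxygenase, had 0 UMIs in wild type and 32 in knockout dense nuclei. Its log2 ratio was 2.13 with 3 UMIs taken for the 0, which is not a limit of its counting interval. Those 32 UMIs came from 11 nuclei, and over all selected nuclei the gene had 17 and 50 UMIs (9.75 and 33.3 CPM). EDN1 had 2 and 29 UMIs (7.47 and 44.5 CPM), with 2.57 (0.59 to 5.69).

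L3MBTL4, which encodes a protein with domains that read histone methylation, had 3 UMIs (11.2 CPM) in the wild type library and 199 (305 CPM) in the knockout library, a log2 ratio of 4.77 (3.20 to 7.06), while outside the rule it was at 67.3 and 76.5 CPM. SYNE2, a nuclear envelope protein, had 108 and 854 UMIs (404 and 1309 CPM), a log2 ratio of 1.70 with a lower bound of 1.41. MTUS1, a microtubule-associated protein, had 81 and 653 UMIs (303 and 1001 CPM), with 1.73 (1.39 to 2.08). The latter pair were in the wild type library at the level of other nuclei (391 and 293 CPM) and in the knockout library above it. SLC22A3, a transporter of organic cations, had 2 and 43 UMIs (7.47 and 65.9 CPM), MME, the peptidase neprilysin, 3 and 51 UMIs (11.2 and 78.2 CPM), and CCDC85A 14 and 115 UMIs (52.3 and 176 CPM). Their log2 ratios were 3.14 (1.20 to 6.23), 2.80 (1.17 to 5.13) and 1.75 (0.95 to 2.67). Over all genes tested TCTEX1D4, DTHD1 and L3MBTL4 led in this direction, and the first pair had 0 UMIs in wild type dense nuclei and were also higher in knockout nuclei outside the rule, by 4.13 and 3.69.

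The raised genes named as lower in knockout dense nuclei were CD93, CIART, APLNR, SPARCL1, AQP1, COL15A1, PDGFD, LAMA4, BICD1 and GJA1. Such genes can likewise count as raised through the wild type library alone. CD93, a lectin-like receptor, had 68 UMIs (254 CPM) in the wild type library and 28 (42.9 CPM) in the knockout library, a log2 ratio of -2.57 (-3.26 to -1.91). APLNR, the apelin receptor, had 23 UMIs (85.9 CPM) in the wild type library and 7 (10.7 CPM) in the knockout library, with -3.00 (-4.47 to -1.73). AQP1, the water channel of capillaries, had 115 and 72 UMIs (429.7 and 110.4 CPM), with -1.96 (-2.41 to -1.52). All 3 were higher in the wild type library, with counting intervals of the levels that did not overlap. As these genes too were chosen by the interval of the ratio, this tests nothing. GJA1, connexin 43, had 35 and 22 UMIs (131 and 33.7 CPM), with -1.96 (-2.79 to -1.15). Over all selected nuclei GJA1 was at -0.64, which turned to 0.37 (-1.27 to 2.25) when nuclei with 3 or more markers of another type were left out. SPARCL1, a secreted matrix protein, had 383 and 258 UMIs (1431 and 396 CPM), with -1.86 (-2.09 to -1.62), and PDGFD, a growth factor, 141 and 117 UMIs (527 and 179 CPM), with -1.55 (-1.92 to -1.19). CIART, a repressor of the circadian clock, had 96 and 46 UMIs (359 and 70.5 CPM), with -2.35 (-2.89 to -1.83). CD93, CIART and SPARCL1 had the opposite sign outside the rule, at 1.78, 0.55 and 0.55. BICD1, an adaptor of dynein, had 136 and 115 UMIs (508 and 176 CPM), with -1.53 (-1.90 to -1.16). Over all genes tested, ADAMTS5, COL11A1 and CNTNAP2 led in this direction, with 53 and 9 UMIs (198 and 13.8 CPM) for the first. Of those 53 wild type UMIs, 22 came from 1 nucleus.

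**Figure D4:**
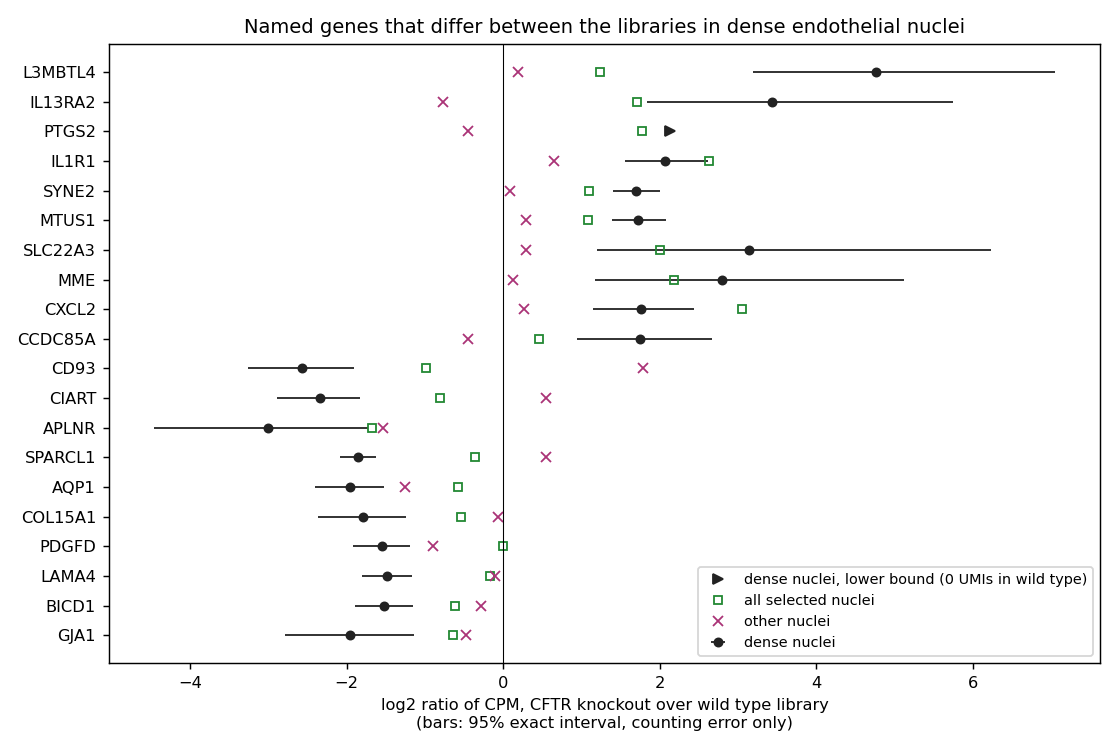
Log2 ratio of CPM, knockout over wild type library (x), of the 20 genes named in dense nuclei (y). Black points are dense nuclei with exact 95% intervals for counting error, green squares are all selected nuclei and crosses are nuclei outside the rule. The black triangle is PTGS2, with 3 UMIs taken for its 0 UMIs in wild type dense nuclei. The key calls it a lower bound, but it is not a limit of the counting interval. In dense nuclei the ratios run from -3.00 (APLNR) to 4.77 (L3MBTL4). The cross of APLNR likewise takes 3 UMIs for the 0 UMIs of the knockout library outside the rule.

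By function, several genes of the basement membrane were lower in knockout dense nuclei. Of its genes 11 of 16 passed the filter, 0 were at least 2-fold higher and 4 at least 2-fold lower, and 10 of 11 ratios were below 0, with a median of -0.54. Over all 6349 genes tested 10.6% were at least 2-fold higher and 4.28% lower, with a median of 0.14, and of the 748 raised genes 7.62% and 12.2%, with 463 below 0. Among the vein and the remaining nuclei, as classed below, 8 of 9 and 9 of 10 ratios of the list were below 0. Within lymphatic nuclei the list had 4 of 6 above 0 and a median of 0.19. LAMA4, the laminin chain of vessels, had 181 UMIs (676 CPM) in the wild type library and 158 (242 CPM) in the knockout library, a log2 ratio of -1.48 (-1.80 to -1.17). COL15A1, a collagen at the edge of the basement membrane, had 67 and 47 UMIs (250.3 and 72.1 CPM), with -1.80 (-2.37 to -1.24). COL18A1, the source of endostatin, was at -1.17 (-1.59 to -0.75), SPARC at -1.02 (-1.56 to -0.48) and the type IV collagen COL4A2 at -0.73 (-1.01 to -0.45). The perlecan gene HSPG2 was at 119.6 and 119.6 CPM, a ratio of 0.00013 (-0.61 to 0.64). In nuclei outside the rule LAMA4, COL15A1 and SPARC were at -0.11, -0.071 and -0.21. Fibroblast markers, which share matrix genes, were also lower in knockout dense nuclei, at 1517 and 848 summed CPM, with 1 and 2 of 10 genes at 0. Their part in the result was not tested, and in narrowed nuclei, with 1109 and 886 CPM, LAMA4 was at -1.36 and COL15A1 at -1.66.

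Of the 15 transcription factors tested, 13 had ratios below 0 and 2 above, 0 were at least 2-fold higher and 1 at least 2-fold lower, and the median was -0.56, beside 4.28% of all tested and 12.2% of raised genes at least 2-fold lower. Below 0 were 2532 of all 6349 tested genes and 463 of the 748 raised ones. Among the vein and the remaining nuclei, as classed below, 11 of 13 and 10 of 12 ratios of the factors were below 0. Within lymphatic nuclei the list had 5 of 10 above 0 and a median of 0.026. PROX1 and TBX1 of the list were also among the genes that chose those nuclei. SOX18, known from vessel and lymphatic development, had 65 UMIs (243 CPM) in the wild type library and 57 (87.4 CPM) in the knockout library, a log2 ratio of -1.47 (-2.01 to -0.94), against 1.64 in other nuclei. ETS1 had 148 and 186 UMIs (553 and 285 CPM), with -0.96 (-1.27 to -0.63), and KLF2, the factor induced by flow, 41 and 56 UMIs (153 and 85.9 CPM), with -0.84 (-1.44 to -0.22). MEF2C (-0.56, -0.82 to -0.30) and TCF4 (-0.81, -0.96 to -0.66) were also below 0 with their whole interval. The intervals of ERG and FLI1 held 0, at 0.0085 (-0.30 to 0.32) and -0.11 (-0.33 to 0.10). FOXO1 had the opposite sign, at 0.61 (0.16 to 1.09).

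Signalling pathways gave few calls. Beside them stand 10.6% of all tested genes at least 2-fold higher and 4.28% lower, and 7.62% and 12.2% of raised genes. With 0 or 1 call in a direction, no list below is read as changed. For VEGF and neuropilin genes 5 of 11 passed the filter and 0 were at least 2-fold higher and 1 at least 2-fold lower. VEGFC, the lymphatic growth factor, had 44 and 39 UMIs (164 and 59.8 CPM), with -1.46 (-2.12 to -0.80), whereas the coreceptors NRP1 and NRP2 were at 0.16 (-0.088 to 0.42) and -0.12 (-0.46 to 0.22). Angiopoietin and TIE genes had 5 of 7 tested, of which 0 were at least 2-fold higher and 1 at least 2-fold lower: ANGPT2, the ligand released by activated endothelium, had 33 and 37 UMIs (123 and 56.7 CPM), with -1.12 (-1.84 to -0.40), and TIE1 was at -0.90 (-1.63 to -0.15). In the Notch list 4 of 12 were tested and 0 were at least 2-fold higher and 1 at least 2-fold lower, the lower one being NOTCH1 with 18 and 15 UMIs (67.3 and 23.0 CPM), while JAG1 was at 0.037 (-0.59 to 0.70). Of the bone morphogenetic protein (BMP) and TGF-beta list 11 of 15 were tested and 0 were at least 2-fold higher and 1 at least 2-fold lower. ENG, a coreceptor of BMP9, had 29 and 89 UMIs (108 and 136 CPM), with 0.33 (-0.29 to 0.99), TGFBR2 was at -0.41 (-0.66 to -0.15) and SMAD1 at -0.70 (-0.99 to -0.40). The lower one was LTBP4, at -1.29 (-2.21 to -0.36).

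In the Wnt and barrier list 11 of 16 genes were tested and 1 was at least 2-fold higher and 2 at least 2-fold lower. For this list and the junction genes, the shares over all genes tested were 10.6% and 4.28%, and over raised genes 7.62% and 12.2%. FZD4, the receptor of norrin, had 14 UMIs (52.3 CPM) in the wild type library and 69 (106 CPM) in the knockout library, a log2 ratio of 1.02 (0.17 to 1.96), and the coreceptor LRP5 was at 0.98 (0.22 to 1.83). LEF1, a factor of the same pathway, had 236 and 293 UMIs (882 and 449 CPM), with -0.97 (-1.23 to -0.72). The receptors and LEF1 differed in opposite directions. APCDD1, an inhibitor of Wnt signals, was at -1.72 (-2.56 to -0.89), and SLCO1A2, an organic anion transporter that was not raised in dense nuclei, at -2.47 (-3.05 to -1.92). Of the junction genes 16 of 19 were tested and 0 were at least 2-fold higher and 1 at least 2-fold lower, the lower one being CGNL1, paracingulin, with 159 and 167 UMIs (594 and 256 CPM) and -1.21 (-1.54 to -0.89), while JAM2 was at 0.35 (-0.014 to 0.73) and TJP1 at -0.13 (-0.49 to 0.23).

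Genes of leukocyte adhesion held calls of both directions. Beside the lists of this paragraph stand 10.6% of all tested genes at least 2-fold higher and 4.28% lower, and 7.62% and 12.2% of raised genes. Of 18 listed genes 9 were tested and 2 were at least 2-fold higher and 2 at least 2-fold lower, the higher ones being IL1R1 and VCAM1 and the lower ones CD93 and CLEC14A. VCAM1, which binds leukocyte integrins, had 8 UMIs (29.9 CPM) in the wild type library and 40 (61.3 CPM) in the knockout library, a log2 ratio of 1.04 (-0.078 to 2.34) whose interval held 0. SELP, P-selectin, had 14 and 58 UMIs (52.3 and 88.9 CPM), with 0.77 (-0.095 to 1.72). ACKR1, the chemokine-binding receptor of venules, had 51 and 70 UMIs (191 and 107 CPM), with -0.83 (-1.37 to -0.28), and CLEC14A 38 and 41 UMIs (142 and 62.9 CPM), with -1.18 (-1.85 to -0.50). In the caveolae, fenestrae and scavenging list 10 of 15 were tested and 0 were at least 2-fold higher and 1 at least 2-fold lower, the lower one being the mannose receptor MRC1 at -1.19 (-1.81 to -0.56), while PLVAP was at -0.25 (-0.79 to 0.30). The coagulation and tone list had 13 of 25 tested, of which 1 was at least 2-fold higher and 0 at least 2-fold lower, the higher one being EDN1. CALCRL was at -0.32 (-0.54 to -0.11), F8 at 0.34 (-0.20 to 0.91) and MMRN1 at -0.68 (-0.98 to -0.38).

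The next lists of endothelial function held only calls that were lower in the knockout library, though 4 of 12 and 2 of 8 ratios lay above 0. Of the genes of tip cells and growing vessels 12 of 19 were tested and 0 were at least 2-fold higher and 3 at least 2-fold lower, the lower ones being APLNR, PDGFD and IGFBP7. IGFBP7, a secreted protein of the vessel wall, had 626 and 752 UMIs (2339 and 1153 CPM), with -1.02 (-1.18 to -0.87). Transporters and metabolic genes had 8 of 20 tested, of which 0 were at least 2-fold higher and 4 at least 2-fold lower, beside 10.6% and 4.28% of all genes tested and 7.62% and 12.2% of raised genes: AQP1, the zinc transporter SLC39A10 (-1.43, -1.77 to -1.08), the mechanosensitive channel PIEZO2 (-1.40, -1.99 to -0.81) and GPIHBP1 (-1.05, -1.75 to -0.35).

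General responses differed between the 2 ways of choosing nuclei. Over all selected nuclei 26 interferon-induced genes were tested, 15 were at least 2-fold higher and 0 lower in the knockout library, beside 8.92% and 7% of all genes tested, with a median of 1.05. In dense nuclei 11 were tested, 1 was at least 2-fold higher and 0 at least 2-fold lower, with a median of 0.13, which was -0.0087 with TMM scale factors. In narrowed nuclei 9 were tested, 0 were at least 2-fold higher and 2 lower, and the median was -0.64. Over all genes tested the shares were 10.6% and 4.28% in dense nuclei, and 8.41% and 4.43% in narrowed ones. IFI44L in dense nuclei had 103 and 295 UMIs (385 and 452 CPM), with 0.23 (-0.096 to 0.57). HERC6 had the opposite sign, at -0.88 (-1.36 to -0.38), against 1.39 in other nuclei. Of the hypoxia genes 13 of 21 were tested in dense nuclei and 1 was at least 2-fold higher and 0 at least 2-fold lower, the higher one being EGLN3 with 1 and 30 UMIs (3.62, 1.03 to 8.97). Immediate early and stress genes had 7 of 22 tested, of which 1 was at least 2-fold higher and 1 at least 2-fold lower: HMOX1 at 1.04 (-0.37 to 2.78) and HSPA8 at -1.08 (-1.64 to -0.51). FKBP5, a cochaperone of steroid receptors chosen after its values were seen, had 175 and 928 UMIs (654 and 1423 CPM), with 1.12 (0.89 to 1.36), against 0.74 outside the rule.

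Vessel type was read from 4 short lists, and a nucleus was put in a class when it had UMIs of 2 or more genes of the list. The classes are ranges of a count and not types, and they overlap. The vein class held 24 of 84 (28.6%, 19.2 to 39.5%) of the dense wild type nuclei and 112 of 212 (52.8%, 45.9 to 59.7%) of the knockout ones, a log2 ratio of 0.89. After thinning each nucleus to 1000 UMIs, which left out 5 wild type and 15 knockout nuclei, the shares were 12.7% and 30.5%. The lymphatic class held 29 of 84 (34.5%, 24.5 to 45.7%) and 70 of 212 (33.0%, 26.7 to 39.8%), a log2 ratio of -0.064. The artery class held 19 of 84 (22.6%, 14.2 to 33.0%) and 29 of 212 (13.7%, 9.36 to 19.1%), and the capillary class 8 and 12 nuclei. The vein share was higher in the knockout library with intervals that did not overlap, and the intervals of the other 3 classes did. With a cut of 3 genes the vein class held 11 and 68 nuclei, so many nuclei lay near the cut.

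**Figure D5:**
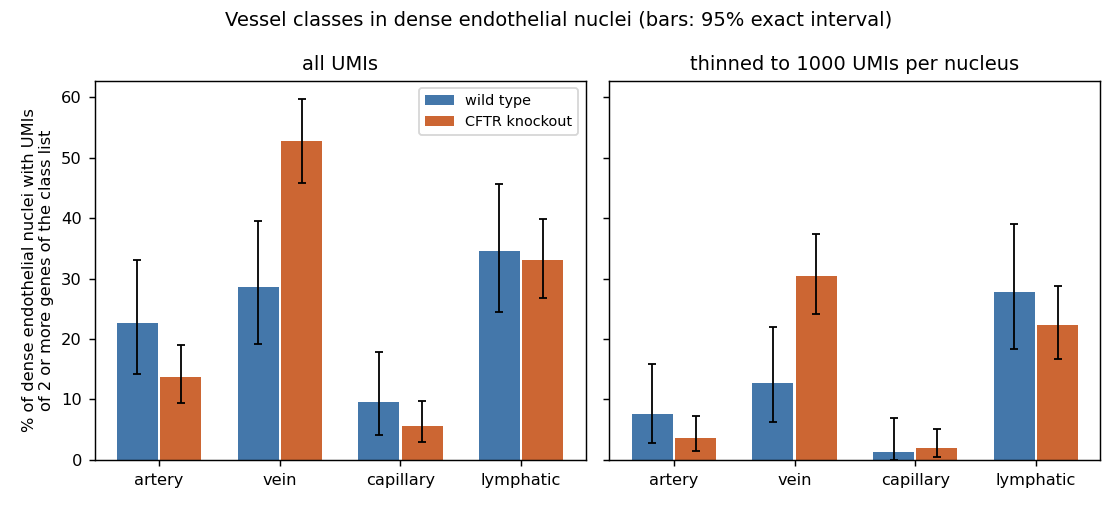
Percent of dense nuclei with UMIs of 2 or more genes of each class list (y), for the wild type (blue, 84 nuclei) and knockout library (orange, 212 nuclei), with all UMIs (left) and after thinning to 1000 UMIs per nucleus (right). Lines are exact 95% intervals for counting error. The vein bars are at 28.6% and 52.8%, and the lymphatic bars at 34.5% and 33.0%.

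Free RNA and chance give a floor to such shares. In 1419 wild type and 1050 knockout neuron-marked nuclei, those outside the rule with UMIs of 3 or more mature neuron markers, with median depths of 4367 and 3463 UMIs, the vein class held 5.85% and 6.29%, the artery class 8.10% and 3.52%, the capillary class 0.634% and 0.381% and the lymphatic class 0.634% and 1.14%. After thinning, these nuclei held 0.285% and 0.790% in the vein class. Dense nuclei lay above the floor in every class and library.

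The genes that made the lymphatic class included PROX1, the master factor of lymphatic identity, with 88 UMIs, all within the class, the guidance protein RELN with 489 UMIs against 8, and the chemokine CCL21 with 200 UMIs against 4. PROX1 was found in 11 wild type and 29 knockout nuclei of the class. TBX1 was the list gene found in the most class nuclei, 29 and 61, but it was not particular to them, with 275 UMIs against 239. The share of the class without TBX1 was not computed. Genes that did not make the class had high counts in it too, and counts are set here and below against those of the dense nuclei outside the class. CEMIP, which takes part in hyaluronan breakdown, had 173 UMIs against 4, but in only 4 wild type and 9 knockout nuclei. PTX3, a pentraxin, had 82 UMIs against 2, in 17 and 20 nuclei. RORB, a nuclear receptor, had 105 UMIs against 3, SCN3A, a sodium channel subunit, 83 UMIs against 3, and MRC1 86 UMIs against 5. PTX3 had 46 wild type and 36 knockout UMIs in the class and RORB 51 and 54, so both libraries contributed.

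The vein class shared 40 of its 136 dense nuclei with the lymphatic class, 10 wild type and 30 knockout. Its class genes included ADGRG6, an adhesion receptor, with 228 UMIs against 14, IL1R1 with 361 UMIs against 21, ACKR1 with 117 UMIs against 4 and VCAM1 with 48 against 0. The genes outside its list with the highest ratios were NXPH1 (60 UMIs against 1), ST6GALNAC5 (144 against 22), MME, FAM198B and SRGN. The 60 UMIs of NXPH1 came from 5 knockout nuclei, and 56 of them from 1 nucleus. Those of ST6GALNAC5 came from 5 wild type and 16 knockout nuclei. SRGN, a proteoglycan of secretory granules, had 113 UMIs against 22, and FAM198B 161 UMIs against 32. MME was in the class almost only in the knockout library, with 1 wild type and 48 knockout UMIs. IL1R1 is one of the 7 measured genes of the list and was itself higher in the knockout library. Without it the class held 23.8% (15.2 to 34.3%) and 38.2% (31.6 to 45.1%), with intervals that overlapped, and leaving out any other gene of the list gave wild type shares from 16.7% to 27.4% and knockout shares from 44.3% to 50.9%. Of the other genes, ADGRG6 and SELP had log2 ratios of 1.38 (0.84 to 1.95) and 0.77 (-0.095 to 1.72), but NR2F2, the factor of vein identity, and ACKR1 were at -0.079 (-0.64 to 0.50) and -0.83 (-1.37 to -0.28).

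The artery class (19 wild type and 29 knockout nuclei) was made by list genes such as DLL4, the Notch ligand, with 8 UMIs in the class and 0 elsewhere, SEMA3G with 8 UMIs against 1, and UNC5B, a netrin receptor, with 27 UMIs against 10. Outside the list NXPH1, RGS5, IGFBP3, COL28A1 and ST6GALNAC5 had the highest ratios. IGFBP3, a binding protein of insulin-like growth factors, had 41 UMIs against 21 and was spread over 8 wild type and 12 knockout nuclei, while the 56 UMIs of NXPH1 in the class came from 1 nucleus. RGS5 is a pericyte marker, and its 57 UMIs came from 3 and 5 nuclei. The 92 UMIs of ST6GALNAC5 in the class came from 1 wild type and 2 knockout nuclei. The 4 artery genes that passed the filter all had ratios below 0 between the libraries, with a median of -1.01, and of 7 vein genes 5 lay above 0. Beside them, 2532 of all 6349 tested genes and 463 of the 748 raised genes lay below 0. In narrowed nuclei 3 artery genes passed, all below 0 with a median of -0.49, and 6 of 7 vein genes lay above 0. With so few genes neither list is read as changed. The capillary class, 20 nuclei in all, had 24 UMIs of GPIHBP1 against 50, 16 of RGCC against 17 and 12 of FABP4, a fatty acid carrier, against 2. Outside its list APCDD1, PDGFD, RGS17, RGS5 and ADAMTS5 led. The 24 UMIs of ADAMTS5 in the class came from 1 wild type and 1 knockout nucleus, and the 32 of RGS5 from 3 and 2 nuclei.

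Since the vein share differed, the named genes were also compared within classes: vein nuclei that were not lymphatic by 3 genes (18 wild type, 98 knockout), nuclei with 3 or more lymphatic genes (22 and 46), and the remaining dense nuclei (44 and 68). As IL1R1, itself higher in the knockout library, helped to choose the vein nuclei, those of the 2 libraries can differ in make-up. ACKR1, also of that list, was in 10 of 18 and 37 of 98 vein nuclei, at 672 and 189 CPM. Ratios among vein and remaining nuclei are thus a description only. CD93 had a lower level in the knockout library among vein nuclei (336 and 34.4 CPM, -3.29) and among the remaining ones (357 and 77.9 CPM, -2.20), and was at -0.22 (-3.34 to 3.37) among lymphatic ones, from 2 and 3 UMIs. SPARCL1 had log2 ratios of -2.20 among vein and -1.80 among remaining nuclei but the opposite sign among lymphatic nuclei, at 1.68 (0.29 to 3.41) from 5 and 28 UMIs. LAMA4 was at -2.05, -0.98 and, among lymphatic nuclei, -1.15, the one of these 3 genes that was lower in each class with its whole interval. L3MBTL4 had 4.82 among vein nuclei, 5.02 among remaining nuclei and 3.11 among lymphatic ones, each from 1 wild type UMI. PDGFD was at -2.99, -1.15 and, among lymphatic nuclei, 1.39 (0.19 to 2.82). MTUS1 was at 2.03, 1.17 and, among lymphatic nuclei, 0.16 (-0.65 to 1.02). MME was at 3.24 among vein but 0.080 (-3.05 to 3.66) among remaining nuclei, from 2 and 3 UMIs. SYNE2 (1.79, 0.90 and 0.97) and AQP1 (-3.78, -0.88 and -1.07) kept their sign with whole intervals. Not all named genes are given here. IL1R1, which helps to make the vein class, so that its ratio there is not given, was at 2.26 (0.55 to 4.63) among lymphatic nuclei (3 and 25 UMIs) and 1.08 (-0.64 to 3.17) among remaining nuclei. CXCL2 was at 0.76 (0.053 to 1.56) among vein, 3.27 among remaining, with a lower bound of 1.62, and 0.61 (-1.44 to 3.16) among lymphatic nuclei. The median over the endothelial lists was -0.29 among vein nuclei, -0.41 among the remaining nuclei and -0.100 among lymphatic nuclei, beside 0.20, 0.040 and 0.062 over all genes tested. Within the lymphatic nuclei MMRN1 and PROX1 were at -0.22 and -0.24, and CCL21 and TBX1 at -0.60 and -0.44. These genes belong to the list that chose the lymphatic nuclei, so their ratios there depend on that choice and are a description only. Whether the classes differ from each other in these ratios was not tested.

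A minority of dense nuclei had transcripts of cell division. Nuclei with UMIs of 2 or more proliferation genes numbered 16 of 84 (19.0%) in the wild type and 37 of 212 (17.5%) in the knockout library, beside 20.1% and 13.1% of the deeper neuron-marked nuclei. None of the 5 genes tested was 2-fold raised over other nuclei. Thinned to 1000 UMIs the shares were 7.59% (2.84 to 15.8%) and 6.09% (3.19 to 10.4%), beside 3.21% and 2.17% of neuron-marked nuclei, which the wild type interval held and the knockout interval did not. NUSAP1, a spindle protein, had 24 and 76 UMIs (89.7 and 117 CPM), and TOP2A, the topoisomerase of dividing cells, 5 and 12 UMIs. A difference between the libraries was not detectable at this depth.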

How the data were processed

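Nuclei of 2 libraries, 1 per genotype, were sequenced by 10x Genomics single-nucleus RNA sequencing. The deposited matrices hold whole-number UMI counts per gene and barcode, and per the submitters' processing notes Cell Ranger, Seurat 4.0 and R 4.0.2 were used. No header or label names the genome build or aligner settings, and whether barcodes were filtered is likewise not stated there. The tables were matched to the samples by the code in the sample titles. Of 25880 listed genes, 8256 carried only an identifier, of which 1029 received a symbol through a table of gene names. Genes without a symbol are not named, no sequences or coordinates are printed, and a few items are not reported here.

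UMIs were summed over the selected nuclei of each library and scaled to CPM (Python 3.11.15, numpy 2.4.6, scipy 1.17.1, pandas 2.3.3, matplotlib 3.10.9). Genes with at least 30 UMIs over both libraries were tested, and called means past 2-fold between libraries, or 4-fold over other nuclei in both. A library with 0 UMIs was given a floor of 3 UMIs. Intervals are exact Poisson, Clopper-Pearson or conditional binomial at 95%, and log-normal for ratios of shares. As there is 1 library per genotype, no count model was fitted. TMM factors came from edgeR 4.0.16 in R 4.3.3. The scripts were tested on simulated data (seed 7).

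Doublets were kept: the own threshold of Scrublet (in scanpy 1.11.5) called 1 nucleus in each library, which is too few to be of use, so the 178 wild type and 293 knockout nuclei with the highest scores, 0.8% per 1000 nuclei, were left out as an alternative only. The selection of nuclei and the gene lists were chosen with earlier results of these data known, and the threshold of 20 per 10000 after the values were seen. Named are the 20 genes with the highest lower bound over other nuclei, the 10 highest and 10 lowest between libraries among raised genes by the bound nearest to 0, the first 3 in each direction over all genes, 2 to 5 genes of each list with any past 2-fold whose interval leaves out 0, and 5 genes per vessel class.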

Additional observations from a re-analysis of the deposited data

Results flagged for a closer look

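In 5 genes the knockout over wild type difference of dense endothelial nuclei and that of all nuclei outside the selection had opposite signs, with 1 library per genotype in each. The difference between the 2 sets of nuclei was not tested. IL13RA2 had a log2 ratio of 3.43 in dense nuclei and -0.77 elsewhere, and CCDC85A of 1.75 and -0.45. CD93 had -2.57 in dense nuclei and 1.78 elsewhere. CIART had -2.35 and 0.55, and SPARCL1 -1.86 and 0.55. The 5 genes come from the 20 that were named by their ratio in dense nuclei. In nuclei outside the selection CD93 was at 1.07 and 3.67 CPM in the wild type and knockout library, CIART at 5.28 and 7.74 CPM and SPARCL1 at 61.7 and 90.3 CPM.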

How the results depend on the processing

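The values over all 475 selected nuclei depended most on which nuclei were summed. The log2 ratio of shares, 0.50, was 0.87 with 4 or more selecting genes, 1.11 in dense and 1.13 in narrowed nuclei. The count of genes at least 4-fold raised, 92, was 181 without nuclei that held 3 or more markers of another type, 173 with each nucleus weighted equally, 235 without a UMI filter, 263 in dense and 275 in narrowed nuclei. Genes at least 2-fold higher in the knockout library, 967, numbered 187 without nuclei with other markers, 1513 with a filter of 10 UMIs, 2066 with none and 431 in narrowed nuclei. Those at least 2-fold lower, 759, numbered 139, 1150, 1502 and 227 under the same settings, and 272 in dense nuclei. Among raised genes the 150 higher became 44 without nuclei with other markers, 309 without a filter, 57 in dense and 66 in narrowed nuclei. The 1 lower became 8 with 4 or more selecting genes, 2 with 1000 or more genes per nucleus, 61 without nuclei with other markers, 4 without the highest Scrublet scores, 2 without lymphatic nuclei, 3 with TMM, 35 with equal weights, 15 with a filter of 10 UMIs, 63 with none, 91 in dense and 89 in narrowed nuclei. The median over the endothelial lists, 0.48, was -0.37 without nuclei with other markers, 0.33 with TMM, 0.046 with equal weights, -0.40 in dense and -0.29 in narrowed nuclei. CFTR, at -1.90, was -2.74 in dense and -2.81 in narrowed nuclei. Among class shares over all selected nuclei the artery ratio of -0.70 was -1.36 without nuclei with other markers, and the vein ratio of 0.54 was 1.42 there, 1.70 after thinning, 0.89 in dense and 1.01 in narrowed nuclei. The lymphatic ratio of 0.41 was -0.064 in dense nuclei. GJA1 changed sign to 0.37 without nuclei with other markers, and CRISP3 to -0.81 in narrowed nuclei; the cause was not tested. Fewer UMIs enter under the stricter filters by construction. Of the other single-gene and list values, 326 moved by less than their interval or set limit and 155 by more.

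TMM lowered the median over all genes from 0.15 by 0.15 in all selected nuclei and from 0.14 by 0.14 in dense nuclei. In dense nuclei the endothelial lists were then at -0.54, with 36 raised genes higher and 127 lower, and with equal weights at -0.40, with 64 higher and 113 lower. The 20 genes named between libraries in dense nuclei kept their direction under both. The interferon list in dense nuclei changed sign, to -0.0087 and -0.12. Over all selected nuclei the Notch, basement membrane and transporter lists changed sign with TMM, to -0.062, -0.092 and -0.0092. With equal weights these 3 were at -0.18, -0.12 and -0.35, and 5 more lists changed sign, angiopoietin to -0.11, Wnt to -0.039, leukocyte adhesion to -0.36, caveolae to -0.29 and tip cells to -0.60. Dense and narrowed nuclei, their scales and the vein list without 1 gene were chosen after seeing the data. CFTR without nuclei with other markers gave no value.

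No paired analysis was possible because each genotype has 1 library, and no replicate was left out for the same reason. Counts of 1 to 3 UMIs in the wild type library limit the ratios of L3MBTL4, IL13RA2, SLC22A3, MME and EDN1. The dense wild type nuclei gave 267629 UMIs and the knockout ones 652287.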
